A study of Mus musculus with 48 samples.

Results

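The brain response to an artery occlusion was measured after 24 h in 8 bulk RNA libraries, of 48 in the series. The 8 libraries were chosen by their labels, and all genes of their count tables entered the comparison. Of these, 4 libraries came from mice with permanent middle cerebral artery occlusion (MCAO), in which the artery was coagulated and cut through, and 4 came from sham mice, operated without the coagulation. Both groups were male C57Black/6 mice aged 3 months under isoflurane anaesthesia. No transgene and no drug was given in the labels, and neither the substrain nor the vendor was stated. The labels of the samples call the tissue injured cortex, taken with both affected and unaffected parts, while the text of the series speaks of forebrain hemispheres. A separate control group of 4 libraries came from intact cortex. The labels name replicates A to D in each group, and the methods of the study describe replicates of the bulk data as mice, so p-values measure the spread between these libraries. In whole tissue, fewer cells of a type and less RNA per cell cannot be told apart.

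When a cerebral artery is blocked for good, neurons in its territory run out of oxygen and glucose and die within hours, and the surrounding tissue responds for days. Astrocytes build intermediate filaments and secrete acute phase proteins, in part through cytokines of the interleukin-6 family that activate the transcription factor STAT3. Microglia, the resident macrophages of the brain, release chemokines and complement, and the activated vessel wall lets granulocytes and then monocytes enter.

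The libraries were made with a kit that reads the 3′ end of polyadenylated RNA. Counts on genes ranged from 1599847 to 2361072 after MCAO and from 1590398 to 1883086 in sham, and levels are given as CPM, gene counts scaled to the size of each library with TMM factors, in the order of libraries A, B, C and D. The share of synthetic spike-in (ERCC) counts was 4.35% ± 0.374 (SD, n = 4) after MCAO and 4.62% ± 0.281 in sham, and the difference of -0.273 percentage points did not pass an exact two-sided permutation test (p = 0.343, where 0.0286 is the smallest p that 4 against 4 libraries can give). MCAO library D stood apart in its tissue markers. *Neurod6*, a transcription factor of cortical excitatory neurons, had 4 counts there and 93 to 167 in the other MCAO libraries. The sham libraries held 101 to 138 counts of *Neurod6*. The summed level of the 13 listed striatum genes was 5271 CPM in library D, 2382 in A, 541 in B and 384 in C, and 484 to 1604 CPM in sham. The part of these markers in the results was not tested, and counts of genes are given below with and without library D.

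A pseudogene separated the MCAO libraries of 24 h from all other libraries. *Tmem181b-ps* (ENSMUSG00000096780.7, chromosome 17:6438524-6467022, minus strand, GRCm38), a transcribed pseudogene, had 1, 0, 0 and 0 counts in the MCAO libraries of 24 h and 21, 28, 41 and 37 in the sham libraries of 24 h. The 44 libraries outside MCAO 24 h held between 8 and 120 counts, with a median of 39. Sham exceeded MCAO 159-fold for *Tmem181b-ps*, with a 95% counting interval from 28.0 to 6320 that covers counting error only (edgeR adjusted p = 8.3e-05). Of 13926 genes that averaged 2 CPM or more in the 48 libraries, 2 had all 4 MCAO libraries of 24 h below the other 44, this pseudogene among them, and 0 lay above.

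The loss of counts did not extend to the neighbours of *Tmem181b-ps*. The 16 tested genes within 1.5 Mb had log2 fold changes from -0.34 to 0.97, with a smallest edgeR adjusted p of 0.344. Occlusion and a genetic difference between the groups cannot be told apart at 24 h, since 3 of the 4 MCAO libraries of that time hold no counts of the pseudogene, the other holds 1, and no sham library lacks them. Each result that follows compares the same groups.

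**Figure D1:**
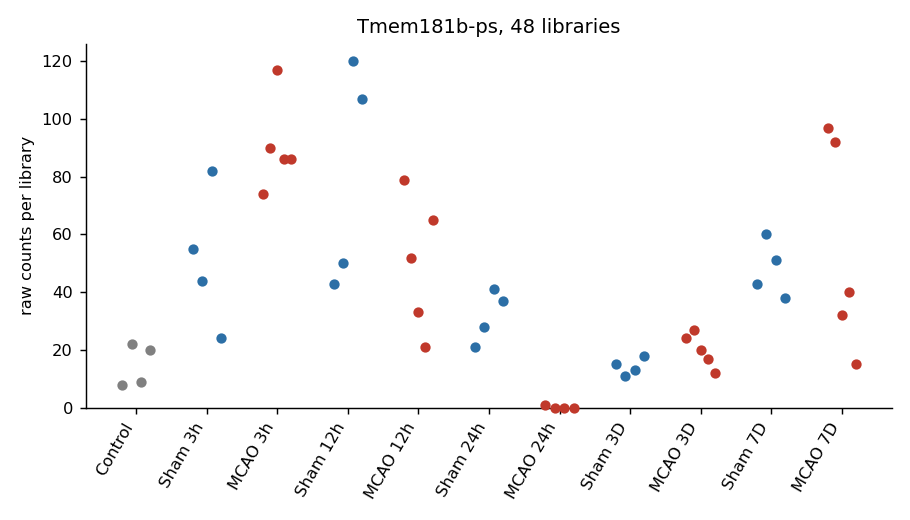
Raw counts of *Tmem181b-ps* in each of the 48 libraries, by group (grey, control; blue, sham; red, MCAO). The MCAO libraries of 24 h lie at 0 or 1 count, and the other 44 libraries lie at 8 to 120 counts.

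Of 15971 genes tested, 49 rose (0.307%) and 2 fell (0.0125%), among them *Tmem181b-ps*. A gene was called with an edgeR adjusted p under 0.01 and a log2 fold change of more than 0.58 in either direction. All 4 MCAO libraries lay above all 4 sham libraries for 692 genes (4.33%) and below them for 428 genes (2.68%), and 1804 genes had an unadjusted p under 0.05. Among the 46 risen genes with more than 3 counts in sham, the log2 fold change ran from 0.99 to 4.59 with a median of 2.11, while the median over all tested genes was 0.01. Against the 4 intact control libraries, 48 of the 49 genes were higher in all 4 MCAO libraries, where 833 of the tested genes (5.22%) were. The exception was *Lyz2*. The 49 genes had been chosen with the same MCAO libraries, so this count gives no independent support. MCAO library D was the highest of its group for 36 of the 49 genes. Without library D, 42 genes rose, of which 41 were among the 49. Without sham library B, C or D, 28, 29 and 30 genes rose, all of them among the 49, and 26 of the 51 calls were made whichever library was left out. With DESeq2 in place of edgeR, 174 genes rose (1.09%) and 23 fell (0.144%), and the 49 were among the former.

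**Figure D2:**
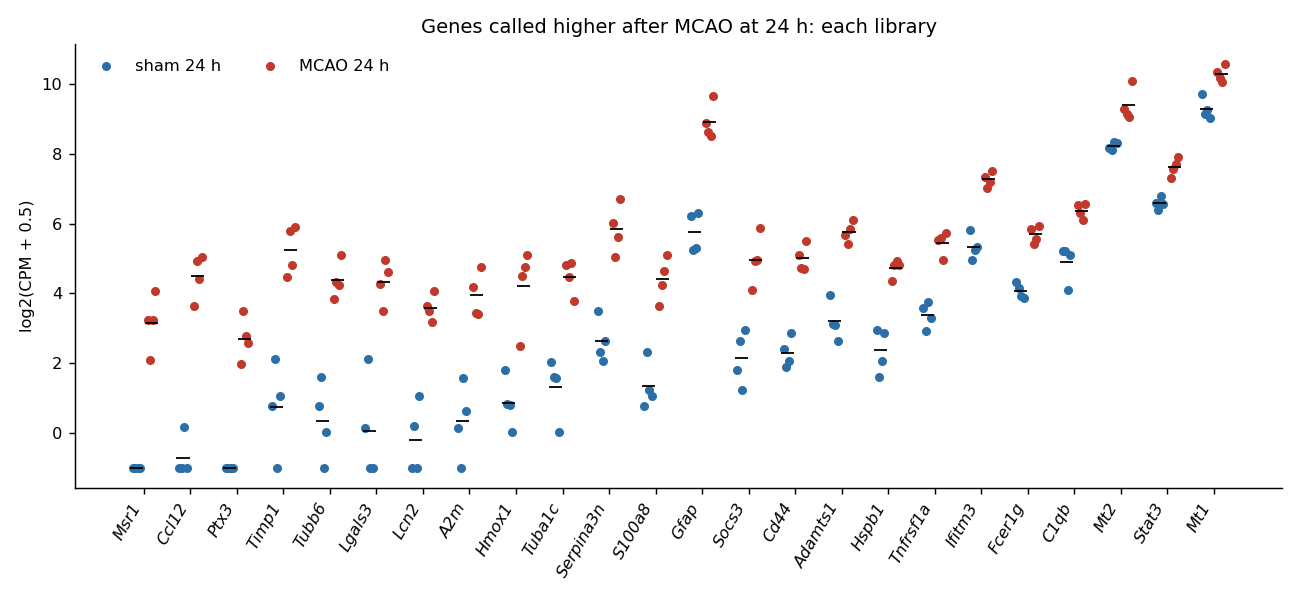
Levels of 24 genes called higher after MCAO at 24 h, as log2(CPM + 0.5) in each library (blue, sham; red, MCAO) with the group mean as a black bar. In each of the 24 genes the 4 MCAO libraries lie above the 4 sham libraries, and *Msr1* and *Ptx3* have no sham counts.

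Each list count that follows is to be read beside the shares of all tested genes. Of these, 0.307% rose, and all MCAO libraries lay above all sham libraries for 4.33% and below them for 2.68%. Genes needed more than 10 counts in total to be tested, so members near 0 in sham entered only through their MCAO counts. In lists of low-count genes a positive change is thus partly fixed by the filter. Among the 60 lists, that of reactive astrocytes had the most calls. Of its 25 listed genes, which include glial intermediate filaments, 25 were tested, 8 rose, and 20 had all MCAO libraries above all sham libraries. The median log2 fold change was 2.06 with genes lacking sham counts at their lower bound. The summed level of the list was 722 to 1474 CPM after MCAO and 144 to 189 CPM in sham, so the groups did not overlap. *Gfap*, the main intermediate filament of astrocytes, had 477, 401, 368 and 810 CPM after MCAO and 74.2, 37.6, 39.4 and 78.9 CPM in sham. Its log2 fold change was 3.15 ± 0.29 (SE, edgeR adjusted p = 8.8e-05). The lowest MCAO library was above the highest sham library. *Vim*, the filament protein vimentin, had 101, 121, 87.0 and 185 CPM against 31.1, 36.4, 35.7 and 32.9 CPM, a log2 change of 1.85 ± 0.22. *Cd44*, a receptor for hyaluronan, had 33.9, 25.9, 25.5 and 45.3 CPM against 4.79, 3.19, 3.70 and 6.79 CPM, a log2 change of 2.77 ± 0.30 (edgeR adjusted p = 0.00031).

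The other genes of the reactive astrocyte list that rose encode secreted or stress proteins. Which cells made these transcripts was not measured. *Timp1*, an inhibitor of matrix metalloproteinases, had 21.9, 54.6, 27.6 and 59.7 CPM against 1.20, 3.83, 0 and 1.57 CPM. Its log2 fold change of 4.59 ± 0.52 (edgeR adjusted p = 0.00039) was the highest among the called genes with more than 3 sham counts. *Serpina3n*, an inhibitor of serine proteases, had 64.7, 32.5, 48.8 and 105 CPM against 10.8, 4.47, 3.70 and 5.75 CPM (log2 3.32 ± 0.38). *Lcn2*, the iron-carrier-binding protein lipocalin 2, had 12.0, 10.8, 8.49 and 16.3 CPM against 0, 0.638, 0 and 1.57 CPM (log2 4.19 ± 0.60). *Ptx3*, a pattern recognition molecule of the pentraxin family, had 3.43, 10.8, 6.37 and 5.43 CPM and no counts in sham, at least 14.7-fold higher (edgeR adjusted p = 0.0099). Its call was lost whichever library was left out. Genes of resting astrocytes had no call by edgeR. Of 22 tested, 1 lay above and 4 lay below all sham libraries, and DESeq2 called 1 lower, the glutamine synthetase *Glul*. The summed level of the list was 7823 to 8739 CPM after MCAO and 9341 to 10372 CPM in sham, so the groups did not overlap. The median log2 fold change was -0.08, or 0.04 when scaled to the spike-ins. The glutamate transporter *Slc1a2* had 2359, 2245, 2306 and 2063 CPM against 2655, 2990, 3379 and 2781 CPM (log2 -0.40 ± 0.12, edgeR adjusted p = 0.19).

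Genes of the STAT3 pathway were read as transcripts only, and the activity of STAT3 was not measured. Of 13 tested genes of the IL-6 family list, 3 rose, 6 lay above all sham libraries, and the median log2 fold change was 0.91. The count of 3 became 0 without sham library A or B, 1 without sham library C or D or MCAO library C, and 2 without MCAO library A, B or D. *Il6* itself had 5 counts over the 4 MCAO libraries and 0 in sham and was not tested. *Stat3* had 158, 188, 211 and 239 CPM after MCAO and 95.8, 83.6, 110 and 94.0 CPM in sham, a log2 change of 1.05 ± 0.16 (edgeR adjusted p = 0.0035). *Socs3*, a feedback inhibitor that STAT3 induces, had 16.7, 30.1, 30.6 and 57.9 CPM against 2.99, 5.74, 1.85 and 7.31 CPM (log2 2.86 ± 0.42, edgeR adjusted p = 0.003). Both genes were higher in each MCAO library than in any sham library. *Il4ra*, the receptor chain for interleukins 4 and 13, had 29.6, 20.7, 22.9 and 30.2 CPM against 5.39, 4.47, 12.9 and 4.70 CPM (log2 1.91 ± 0.32), and it kept its call only without sham library C. Of the acute phase list, which liver cells make in large amounts during inflammation, 9 of 20 genes were tested and 6 of the 20 had 0 counts in the 8 libraries. All 9 tested genes had a positive change, 7 lay above all sham libraries, and 3 rose (*Serpina3n*, *Ptx3* and *A2m*). Without MCAO library A or sham library A, B or D, 1 rose. A gene near 0 in sham, such as *Ptx3*, passed the filter of more than 10 counts only through its MCAO counts. Its positive sign was thus fixed by the filter. *A2m*, a broad protease inhibitor, had 17.6, 10.3, 10.2 and 26.6 CPM against 0.599, 0, 2.46 and 1.04 CPM (log2 3.87 ± 0.57).

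STAT3 signalling, metal stress and heat shock act through known promoter elements, and each had a called gene. The windows before the RefSeq gene start are shown for *Socs3* (STAT), *Mt2* (metals) and *Hspb1* (heat shock). The sequences are the 250 bases before the RefSeq gene start in GRCm38.p6, written 5′ to 3′ on the strand of the gene with motif matches in capitals. *Socs3* lies on the minus strand, with its window at chr11:117969367-117969616, and its match to TTCNNNGAA starts 154 bases before the RefSeq gene start. The Gencode span of *Socs3*, chr11:117966079-117970047, covers this window. The window is thus upstream of the RefSeq start but inside the Gencode gene. *Mt2* lies on the plus strand at chr8:94172368-94172617, with matches to TGCACNC or TGCGCNC, on either strand, that start 223, 128 and 50 bases before the gene start. *Hspb1* lies on the plus strand at chr5:135887669-135887918, with matches to GAANNTTC 117 and 97 bases before the gene start.
Socs3: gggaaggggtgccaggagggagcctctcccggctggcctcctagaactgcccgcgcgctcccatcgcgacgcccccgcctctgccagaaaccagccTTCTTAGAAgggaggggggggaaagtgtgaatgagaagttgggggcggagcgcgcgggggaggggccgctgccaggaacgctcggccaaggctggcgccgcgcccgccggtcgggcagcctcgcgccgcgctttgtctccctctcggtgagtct
Mt2: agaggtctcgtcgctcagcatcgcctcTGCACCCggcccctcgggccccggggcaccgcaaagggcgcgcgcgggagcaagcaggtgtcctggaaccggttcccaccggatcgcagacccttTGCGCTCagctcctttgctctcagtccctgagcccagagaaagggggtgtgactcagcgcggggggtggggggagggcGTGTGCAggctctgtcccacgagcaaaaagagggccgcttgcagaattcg
Hspb1: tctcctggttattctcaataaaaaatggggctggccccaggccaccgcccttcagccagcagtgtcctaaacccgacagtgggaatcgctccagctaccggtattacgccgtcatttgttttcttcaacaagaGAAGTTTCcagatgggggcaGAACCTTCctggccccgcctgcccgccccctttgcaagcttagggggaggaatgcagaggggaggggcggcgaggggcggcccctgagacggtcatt

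The same letters were counted in all promoters of this length. A RefSeq promoter was at hand for 42 of the 49 risen genes and for 11247 tested genes, and both strands were searched. TTCNNNGAA was found in 4 of the 42 (9.52%) and in 6.93% of all, and the 4 were *Ctla2a*, *Ctsc*, *Socs3* and *Tnfrsf1a*. The AP-1 motif TGANTCA was found in 4 (9.52%, against 5.53% of all), in *C3ar1*, *Ctla2a*, *Ifitm3* and *Mt2*. The heat shock letters were found in 3 (7.14%, against 6.01%), the antioxidant response letters TGACNNNGC in 6 (14.3%, against 13.8%) and the metal response letters in 7 (16.7%, against 34.4%). The NF-kB motif was found in 0 of the 42 and in 0.445% of all. A match is a description of these windows only.

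Few members of the metal, heme and heat shock lists rose. Of 10 tested metallothionein and zinc transporter genes, 2 rose and 3 lay above all sham libraries. The count of 2 became 0 without MCAO library A or sham library B, C or D, and 1 without MCAO library B or D or sham library A. *Mt2*, a metal-binding protein, had 628, 564, 540 and 1089 CPM after MCAO and 287, 279, 326 and 319 CPM in sham (log2 1.22 ± 0.20, edgeR adjusted p = 0.0069). *Mt1*, its neighbour and close relative, had 1305, 1154, 1079 and 1531 CPM against 841, 574, 614 and 528 CPM (log2 0.99 ± 0.16, edgeR adjusted p = 0.0079). For both the groups did not overlap. Of 18 tested genes of iron and heme handling, 2 rose (*Lcn2* and *Hmox1*), 5 lay above and 1 below all sham libraries. The count of 2 became 0 without sham library A, B or C, and 1 without MCAO library A or B or sham library D. *Hmox1*, which breaks down heme and frees its iron, had 5.14, 22.1, 26.7 and 33.8 CPM against 2.99, 1.28, 1.23 and 0.522 CPM (log2 3.81 ± 0.60, edgeR adjusted p = 0.0048). MCAO library A was close to the sham libraries for *Hmox1*, while B, C and D were well above them. Of 20 tested NRF2 antioxidant targets *Hmox1* alone was called, and the median log2 fold change was 0.24. *Hmox1* was called only in the fits without MCAO library A or D among those that left out 1 library.

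*Hspb1*, a small heat shock protein that binds unfolded proteins and actin, had 20.1, 27.8, 30.1 and 27.8 CPM after MCAO and 7.18, 2.55, 3.70 and 6.79 CPM in sham (log2 2.35 ± 0.31, edgeR adjusted p = 0.00091). It alone was called of 22 tested heat shock genes, while 3 were called without MCAO library A. *Hspa1a*, an inducible member of the Hsp70 family, had 7.72, 94.1, 198 and 28.4 CPM against 10.8, 14, 6.77 and 9.40 CPM. *Hspa1b*, its near-identical copy, had 9.43, 95.5, 169 and 21.7 CPM against 8.98, 6.38, 8.01 and 7.31 CPM. MCAO libraries B and C held high levels of both, A lay at the level of sham, and neither gene was called (edgeR adjusted p = 0.058 and 0.034). Reads that match several places were not counted, so levels of such copies, of the tubulins and of the hemoglobins are uncertain. Of 25 tested genes of the ER stress list 0 were called by edgeR (2 higher by DESeq2) and 4 lay above all sham libraries. Among these was *Hspa5*, the main chaperone of the endoplasmic reticulum, with 661, 576, 510 and 464 CPM against 419, 306, 317 and 384 CPM (log2 0.63 ± 0.15, edgeR adjusted p = 0.067).

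Several chemokines without counts in sham were detected after MCAO. Of 24 genes of CC chemokines and receptors, 16 were tested, 1 rose (2 without MCAO library A), and 8 lay above all sham libraries. DESeq2 called 7 of them higher. The median log2 fold change was 2.5 with genes lacking sham counts at their lower bound. Such genes passed the count filter only through MCAO, so their positive sign was fixed and can raise this median. *Ccl12*, a ligand of the monocyte receptor Ccr2, had 12.0, 30.1, 20.8 and 32.6 CPM after MCAO and 0, 0, 0.616 and 0 CPM in sham. The summed counts gave a ratio of 156, with a 95% counting interval from 27.7 to 6192 (edgeR adjusted p = 0.00013). Other members with 0 counts in sham were not called by edgeR. *Ccl4*, a chemokine of macrophages, had 2.14, 6.59, 6.79 and 10.9 CPM, at least 14.9-fold higher, and *Ccl2*, a monocyte attractant, had 1.71, 3.76, 4.25 and 9.66 CPM, at least 10.9-fold higher. *Cxcl10*, which the interferons induce, had 7.29, 5.65, 1.70 and 7.24 CPM, at least 12.4-fold higher. These 3 genes and the other genes without a call that are named below outside the fixed names and the most abundant members of a list were chosen after their values were seen. Of 12 tested CXC and CX3C genes 0 were called by edgeR (1 without MCAO library C) and 2 were called higher by DESeq2. Of the 12, 6 lay above all sham libraries and 1 below, *Cx3cl1* (log2 -0.35 ± 0.13).

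Receptors and targets of the IL-1 and TNF pathways had 1 call among 22 tested genes, and 9 of the 22 lay above and 1 below all sham libraries. DESeq2 called 4 of the 22 higher. *Tnfrsf1a*, the TNF receptor that most cells carry, had 45.9, 48, 30.6 and 52.5 CPM after MCAO and 11.4, 7.02, 12.9 and 9.40 CPM in sham (log2 2.11 ± 0.24, edgeR adjusted p = 0.00041). *Nfkbia*, the NF-kB inhibitor that the pathway induces, had 141, 169, 139 and 176 CPM against 141, 111, 164 and 165 CPM (log2 0.11 ± 0.16), and its groups overlapped. The interferon-stimulated genes stood higher as a list than by their single call. Of 29 tested, 1 rose (2 without sham library A), 18 lay above all sham libraries, 0 lay below, and the median log2 fold change was 1.38. DESeq2 called 5 of the 29 higher. The summed level of the 32 listed genes was 429 to 558 CPM after MCAO and 178 to 229 CPM in sham. *Ifitm3*, a membrane protein that blocks virus entry, had 162, 130, 146 and 182 CPM against 55.7, 30.6, 37.6 and 39.7 CPM (log2 1.92 ± 0.19, edgeR adjusted p = 0.00013). *Irf8*, a transcription factor of microglia and other myeloid cells, had 23.1, 29.6, 30.1 and 29.0 CPM against 13.2, 13.4, 12.3 and 9.40 CPM (log2 1.21 ± 0.22, edgeR adjusted p = 0.013), without a call.

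Complement proteins tag debris, and Fc receptors bind antibodies on it. Of 15 tested complement genes 2 rose and 8 lay above all sham libraries, and of 7 tested Fc receptor genes 2 rose and 6 lay above. Of the complement genes 0 rose without MCAO library A or B or sham library A, B or D, and 1 rose without MCAO library C or D or sham library C. *C1qb*, a chain of the first complement component, had 92.6, 78.1, 68.3 and 94.1 CPM after MCAO and 36.5, 37.0, 16.6 and 34.0 CPM in sham (log2 1.42 ± 0.22, edgeR adjusted p = 0.0048). The other chains, *C1qa* (log2 1.07 ± 0.20) and *C1qc* (log2 0.93 ± 0.18), were not called, at an edgeR adjusted p of 0.020 and 0.021. *C3ar1*, the receptor for the C3a fragment, had 14.6, 18.3, 20.4 and 23.5 CPM against 7.18, 3.83, 2.46 and 6.27 CPM (log2 1.92 ± 0.33), and its call was lost whichever library was left out. *Fcer1g*, the signalling chain shared by Fc receptors, had 57.4, 42.3, 47.1 and 60.3 CPM against 19.8, 17.2, 14.8 and 14.1 CPM (log2 1.65 ± 0.20, edgeR adjusted p = 0.00049). *Fcrls*, a microglial receptor of the Fc receptor-like family, had 55.7, 65.4, 84.9 and 68.8 CPM against 30.5, 24.2, 19.7 and 16.7 CPM (log2 1.59 ± 0.21, edgeR adjusted p = 0.001).

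Microglial genes were listed by the state they are known to mark. Of 26 tested genes of reactive microglia and lipid handling, 3 rose, 12 lay above and 1 below all sham libraries, and the median log2 fold change was 1.15. The count of 3 became 0 without MCAO library A or sham library C or D, 1 without sham library A or B, and 4 without MCAO library C. *Lgals3*, the lectin galectin 3 of phagocytes, had 18.9, 10.8, 30.6 and 24.1 CPM after MCAO and 0.599, 3.83, 0 and 0 CPM in sham (log2 4.26 ± 0.63, edgeR adjusted p = 0.0032). *Msr1*, a scavenger receptor, had 9, 3.76, 8.91 and 16.3 CPM and no sham counts, at least 21.4-fold higher (edgeR adjusted p = 0.0056). *Lyz2*, the lysozyme of myeloid cells, had 68.2, 20.2, 39.1 and 70.6 CPM against 12.6, 8.29, 8.01 and 8.88 CPM (log2 2.38 ± 0.36). Each MCAO library exceeded each sham library for the 3 genes, though *Lyz2* in MCAO library B was within reach of sham.

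*Apoe* and *Trem2*, the lipid carrier and the lipid receptor of phagocytes, were not called. *Apoe* had 1814, 1781, 1837 and 1767 CPM after MCAO and 2298, 2060, 1954 and 2273 CPM in sham, so the MCAO libraries were the lower ones (log2 -0.25 ± 0.11, edgeR adjusted p = 0.42). *Trem2* had 7.29, 5.17, 15.3 and 12.1 CPM against 8.98, 8.29, 5.54 and 8.88 CPM (log2 0.32 ± 0.37, edgeR adjusted p = 0.81), and its groups overlapped. Of 18 tested homeostatic microglia genes *Fcrls* alone was called, and the median log2 fold change was 0.06. *Cx3cr1*, the fractalkine receptor, had 241, 206, 239 and 239 CPM against 162, 143, 132 and 124 CPM (log2 0.72 ± 0.14, edgeR adjusted p = 0.019). *P2ry12*, the ADP receptor of resting microglia, had 8.57, 4.70, 3.4 and 5.43 CPM against 15.6, 13.4, 16.0 and 13.1 CPM (log2 -1.38 ± 0.32, edgeR adjusted p = 0.057). Neither was called by edgeR, and their groups were apart in opposite directions. DESeq2 called *Cx3cr1* higher (DESeq2 adjusted p = 8.6e-06). Of the homeostatic microglia list it called 3 genes higher and 1 lower. Among 23 tested lysosomal genes 1 rose, the protease *Ctsc*, with 30.9, 24.9, 28.9 and 33.8 CPM against 2.39, 5.10, 6.77 and 9.92 CPM (log2 2.25 ± 0.31, edgeR adjusted p = 0.0014). Of the lysosomal genes 0 were called without sham library B, 2 without sham library A and 3 without MCAO library C.

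Genes of blood leukocytes had few counts. *S100a8*, a calcium-binding alarmin abundant in granulocytes, had 12.0, 18.3, 24.6 and 33.8 CPM after MCAO and 1.20, 4.47, 1.85 and 1.57 CPM in sham (log2 3.27 ± 0.44, edgeR adjusted p = 0.0012). Its partner *S100a9* had 16.7, 12.2, 25.0 and 20.5 CPM against 2.99, 1.91, 3.70 and 1.04 CPM (log2 2.94 ± 0.39, edgeR adjusted p = 0.0011). Both rose, and they were the only called genes among 6 tested of 20 granulocyte genes. The call of *S100a8* was lost without sham library A or C. The defining marker *Ly6g* had 1 count over the 4 MCAO libraries and *Retnlg* had 6, and both had 0 in sham. *Ccr2*, the receptor of inflammatory monocytes, had 41 counts over the MCAO libraries and 1 in sham, of which MCAO library D held 21 and B held 1. Of 13 tested genes of monocytes and border macrophages 0 were called by edgeR (2 higher by DESeq2) and 3 lay above all sham libraries. Of 16 lymphocyte genes 3 were tested, 7 had 0 counts in the 8 libraries and 0 were called. Their summed level was 22.7, 14.1, 22.1 and 67.6 CPM after MCAO and 20.4, 42.1, 32.6 and 9.92 CPM in sham, so the groups overlapped. *Ighm*, the heavy chain of immunoglobulin M, had 9.43, 11.3, 18.3 and 9.05 CPM against 18, 28.1, 24.6 and 7.84 CPM. *Cd4*, the coreceptor of helper T cells, had 10.7, 0, 0.849 and 57.3 CPM against 0, 8.93, 8.01 and 0.522 CPM (log2 1.94 ± 1.12, edgeR adjusted p = 0.56), with the highest value in MCAO library D. The T cell marker *Cd3e* and the B cell marker *Cd79a* had 0 counts in the 8 libraries, which allows up to 0.354 CPM over the MCAO group and 0.443 CPM over sham.

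Genes of the cytoskeleton, the matrix and its proteases made up the next group of calls. Of 25 tested actin and tubulin genes 6 rose and 8 lay above all sham libraries, with a median log2 fold change of 0.53. *Tubb6*, a beta tubulin, had 13.7, 19.8, 18.3 and 33.8 CPM after MCAO and 1.20, 2.55, 0 and 0.522 CPM in sham (log2 4.26 ± 0.53, edgeR adjusted p = 0.00061). *Tuba1c*, an alpha tubulin, had 27.4, 21.6, 28.9 and 13.3 CPM against 3.59, 2.55, 2.46 and 0.522 CPM (log2 3.33 ± 0.41). *Arpc1b*, a subunit of the actin-branching Arp2/3 complex, had 155, 99.7, 73.4 and 124 CPM against 22.7, 35.1, 25.2 and 19.3 CPM (log2 2.15 ± 0.24, edgeR adjusted p = 0.00039). In each of these genes the lowest MCAO library was above the highest sham library. The remaining calls were *Msn* (log2 2.05 ± 0.25), which links actin to the membrane, *Tagln2* (log2 2.08 ± 0.23), an actin-binding protein, and the tropomyosin *Tpm4* (log2 1.44 ± 0.22). *S100a4*, the call among 15 tested annexin and S100 genes, had 24.4, 15.5, 12.7 and 24.7 CPM against 5.39, 3.83, 1.85 and 2.61 CPM (log2 2.48 ± 0.37). No gene of that list was called without MCAO library A or sham library B, C or D, and 2 were called without MCAO library C.

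Of 22 tested metalloproteinase and plasminogen activation genes 2 rose and 8 lay above all sham libraries, and of 23 tested genes of the scar matrix 2 rose and 7 lay above. *Adamts1*, a protease of proteoglycans, had 50.6, 42.3, 57.7 and 68.2 CPM after MCAO and 15, 8.29, 8.01 and 5.75 CPM in sham (log2 2.56 ± 0.26, edgeR adjusted p = 0.00021). *Tgm2*, an enzyme that cross-links proteins, had 60, 47.5, 45 and 67.0 CPM against 20.4, 14.7, 16.0 and 17.2 CPM (log2 1.67 ± 0.20). *Igfbp7*, a secreted binding protein of the vessel wall, was the call among 24 tested TGF-beta and IGF genes, with 69.4, 54.6, 53.9 and 68.2 CPM against 19.2, 24.9, 20.9 and 24.0 CPM (log2 1.46 ± 0.18, edgeR adjusted p = 0.00059). The groups were apart for the 3 genes. Of 22 tested genes of the blood-brain barrier endothelium, 24 of endothelial activation and 15 of pericytes, 0 were called by edgeR. DESeq2 called 1 of the barrier genes lower and 2 of the activation genes higher. In these lists 1, 6 and 1 genes lay above all sham libraries and 2, 1 and 1 below. *Hbegf*, a growth factor for epidermal growth factor receptors, had 48.4, 46.1, 54.3 and 124 CPM against 30.5, 24.9, 17.2 and 22.5 CPM (log2 1.5 ± 0.31, edgeR adjusted p = 0.028). DESeq2 called *Hbegf* higher (DESeq2 adjusted p = 0.00015).

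The 60 lists, chosen with earlier results of these data known, cover 1265 different genes of the count tables. They held 38 of the 49 risen genes, and 11 were in none. Those 11 are named here because they fall outside the lists, after their values were seen. *Aif1*, which encodes the microglial protein IBA1, had a log2 fold change of 1.58 ± 0.26, and *Lcp1* (1.87 ± 0.24), an actin-bundling protein of leukocytes, *Cd52* (2.74 ± 0.46), a surface peptide of leukocytes, and *Ifi30* (2.22 ± 0.37), a lysosomal thiol reductase, are also known from immune cells. *Pdpn* (1.76 ± 0.20), the membrane protein podoplanin, and *Hspb6* (1.78 ± 0.28), a small heat shock protein, rose as well. The others were *Ctla2a* (2.35 ± 0.30), *Prg4* (2.11 ± 0.29), *Pdlim4* (1.80 ± 0.23), *Mrps6* (1.32 ± 0.18) and *Rhoc* (1.15 ± 0.19).

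**Figure D3:**
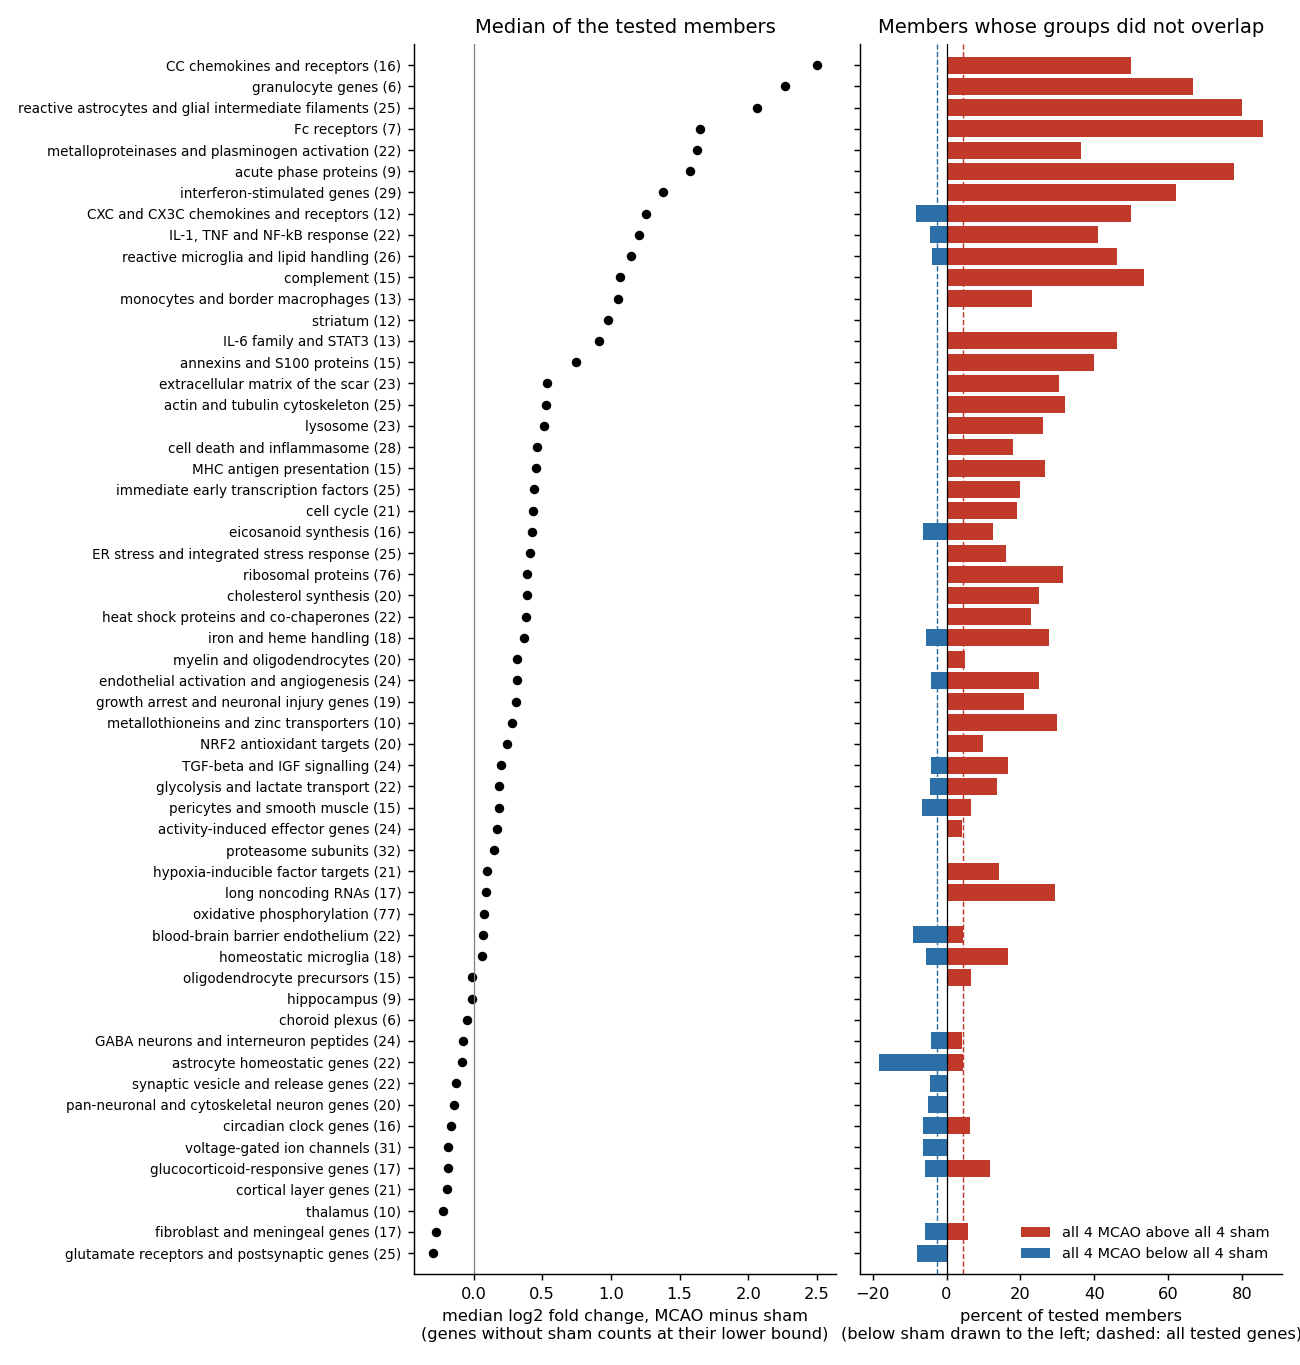
Gene lists with at least 6 tested members (number in parentheses), ordered by the median log2 fold change of MCAO minus sham at 24 h (left, genes without sham counts at their lower bound), with the percent of tested members whose groups did not overlap (right, red for all 4 MCAO above all 4 sham, blue for below; dashed lines give 4.33% and 2.68% of all tested genes). CC chemokines (median 2.5), granulocyte genes and reactive astrocytes (2.06) lie at the top. Of 24 CC chemokine and receptor genes 16 were tested, and of 20 granulocyte genes 6. Members without sham counts passed the filter only through MCAO, which can raise such medians. The lists of homeostatic astrocyte, synaptic, GABA, hippocampus, choroid plexus and oligodendrocyte precursor genes, drawn just below 0, turn positive when scaled to the spike-ins.

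No member of the neuron lists was called. The 6 lists of neuronal, synaptic, glutamate, GABA, ion channel and cortical layer genes held 143 tested members, of which 103 had a negative change. Of the 143, 7 lay below and 1 above all sham libraries, where 2.68% and 4.33% of all tested genes did. The medians of the lists ran from -0.29 to -0.08 on the log2 scale. They ran from -0.16 to 0.03 when scaled to the spike-ins, where the synaptic and GABA lists turned positive. *Snap25*, a protein of vesicle fusion, had 930, 1051, 1208 and 1049 CPM after MCAO and 1277, 1714, 1531 and 1095 CPM in sham (log2 -0.41 ± 0.15, edgeR adjusted p = 0.30). *Nrgn*, a calmodulin-binding protein of excitatory neurons, had 6599, 8229, 13733 and 8963 CPM against 15492, 18072, 19114 and 7843 CPM (log2 -0.69 ± 0.25, edgeR adjusted p = 0.29). *Camk2a*, the calcium-dependent kinase of synapses, had 2724, 3907, 4102 and 2648 CPM against 5041, 4800, 5080 and 4178 CPM (log2 -0.51 ± 0.16, edgeR adjusted p = 0.18). The groups overlapped for the first of these and for *Nrgn*, and lay apart for *Camk2a*.

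Genes that respond to neuronal activity, oxygen and energy had no call by edgeR. Of 25 tested immediate early transcription factors, 24 activity-induced effector genes, 21 targets of the hypoxia-inducible factor and 22 genes of glycolysis, 0 were called, with median log2 fold changes of 0.44, 0.17, 0.10 and 0.19. All MCAO libraries lay above all sham libraries for 5 of the immediate early genes, 1 effector gene, 3 hypoxia targets and 3 glycolysis genes. Of all tested genes 4.33% did. The MCAO libraries lay below all sham libraries for 1 glycolysis gene, *Aldoc*. DESeq2 called 4 immediate early genes, 2 hypoxia targets and 1 glycolysis gene higher, and edgeR called 1 immediate early gene without MCAO library A or sham library A. *Egr1*, an immediate early factor, had 202, 204, 216 and 387 CPM after MCAO and 231, 255, 227 and 215 CPM in sham (log2 0.12 ± 0.19). *Ldha*, which makes lactate, had 226, 204, 175 and 167 CPM against 144, 114, 115 and 155 CPM (log2 0.55 ± 0.16, edgeR adjusted p = 0.14). *Fosl1*, an AP-1 subunit, had 2.57, 3.76, 3.82 and 2.41 CPM and no sham counts, without a call. The growth arrest and neuronal injury list had *Tubb6* as its call among 19 tested genes (2 calls without MCAO library A). The 28 tested cell death genes had 0 calls by edgeR and 1 by DESeq2.

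Ribosomal protein genes stood higher without a call by edgeR. Of 76 tested ribosomal protein genes 0 were called by edgeR and 4 were called higher by DESeq2. Of the 76, 24 lay above and 0 below all sham libraries, and their median log2 fold change was 0.39. The summed level of the 81 listed genes was 16716 to 22976 CPM after MCAO and 14029 to 15986 CPM in sham. The 77 tested oxidative phosphorylation genes had 0 calls, 0 genes apart in either direction and a median of 0.08, and the 32 proteasome subunits likewise had 0 calls, 0 apart and a median of 0.15. Of 20 tested genes of cholesterol synthesis 0 were called by edgeR (1 higher by DESeq2) and 5 lay above all sham libraries (median 0.39).

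Marker lists of other regions and of blood varied more between libraries than between groups. The 12 tested striatum genes had a median log2 fold change of 0.98 with 0 calls, and the summed level of the 13 listed genes was 2382, 541, 384 and 5271 CPM after MCAO against 484, 1604, 1240 and 908 CPM in sham. MCAO libraries A and D were the highest and B and C among the lowest. *Penk*, the enkephalin precursor of striatal neurons, had 525, 131, 21.2 and 877 CPM against 79.0, 200, 153 and 201 CPM. The 20 myelin genes summed to 3157, 1600, 2433 and 6365 CPM after MCAO and 2323, 3254, 3455 and 2103 CPM in sham, again with library D at the top. Of 8 hemoglobin and erythroid genes, 4 were tested, and the 7 in the count tables summed to 63.9, 251, 126 and 453 CPM against 62.9, 152, 20.3 and 21.4 CPM, and the erythroid enzyme *Alas2* had at most 3 counts in any of the 8 libraries. The choroid plexus marker *Ttr* had at most 2 counts and the pituitary marker *Prl* had 0. Their part in the results was not tested.

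**Figure D4:**
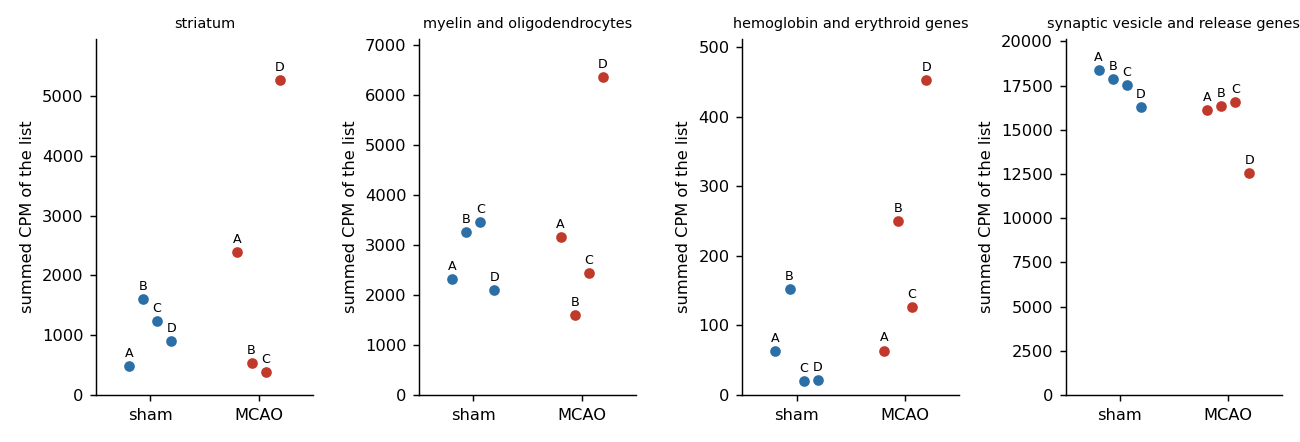
Summed CPM of the striatum, myelin, hemoglobin and synaptic gene lists in each library of 24 h (blue, sham; red, MCAO; letters are replicates). MCAO library D has the highest striatum (5271 CPM), myelin (6365 CPM) and hemoglobin (453 CPM) sums and the lowest synaptic sum, while MCAO libraries B and C lie among the sham libraries or below them in the striatum and myelin panels.

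The 24 h response was then set beside those of 12 h and day 3, each against its own shams, in 1 fit of all 48 libraries. All 49 risen genes had a positive change at 12 h and at day 3. At 12 h 26 of them were called higher, where 0.346% of 19970 tested genes were, and at day 3 45 of them were, where 3.76% were, and 24 were called at both times. Over the 43 genes with more than 3 sham counts at each time, the median log2 fold change was 2.06 at 12 h, 2.09 at 24 h and 3.30 at day 3. Of the 49 genes 25 had a larger change at 24 h than at 12 h, and 39 had a larger change at day 3 than at 24 h. The genes were chosen by their calls at 24 h, which can raise their values at 24 h but not at the other times. In this fit, with a larger spread, 14 of the 49 genes were called at 24 h. *Gfap* had log2 changes of 2.67 at 12 h, 3.16 at 24 h and 4.43 at day 3, and *Timp1* had 4.28, 4.6 and 5.83.

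Single genes had different orders of values over the times. *Fcrls* had log2 changes of 0.32 ± 0.44 at 12 h, 1.60 ± 0.45 at 24 h and 3.65 ± 0.45 at day 3, and *C1qb* had 0.68, 1.43 and 3.32. *Aif1* had 0.61, 1.59 and 2.17. Other myeloid genes had higher values at 12 h, with 2.47 at 12 h and 1.93 at 24 h for *C3ar1* and 2.43 and 2.26 for *Ctsc*. *Trem2*, which was not called at 24 h, had 0.03, 0.33 and 2.81, with a call at day 3 only. A pair of stress genes had its lowest values at day 3. *Hspb1* had 2.04 ± 0.50, 2.36 ± 0.54 and 0.26 ± 0.48, and *Mt2* had 1.52, 1.23 and 0.84, and neither was called at day 3. *S100a8* had 7.5 ± 1.25, 3.28 ± 1.27 and 6.96 ± 1.36. None of these differences between times was called, so the order of a gene's values over time did not pass the test.

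**Figure D5:**
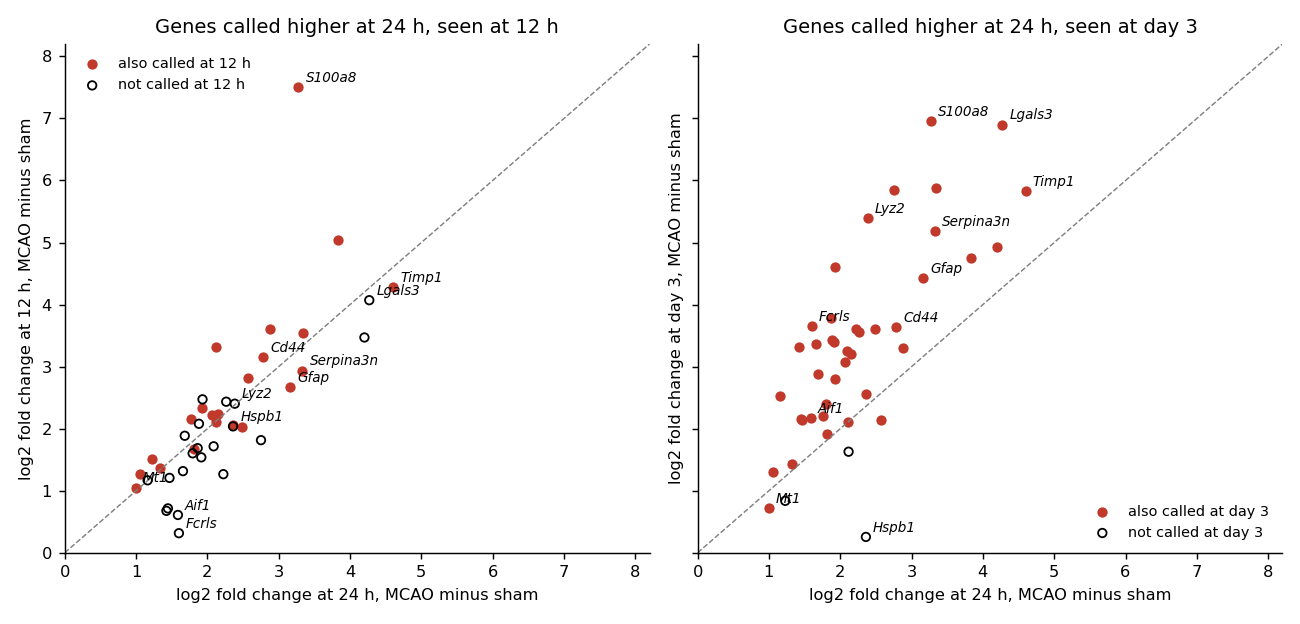
Log2 fold changes of MCAO minus sham at 24 h (x axes) against those at 12 h (left) and at day 3 (right), in 1 fit of 48 libraries, for the 43 genes called higher at 24 h with more than 3 sham counts at each time; filled points were also called at that time, and the dashed line marks equal changes. The points scatter around the line at 12 h (median 2.06 against 2.09) and lie mostly above it at day 3 (median 3.30).

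The test of the difference between times called the same 2 genes in each contrast, of 19970 tested (0.01%). The effect at 24 h minus that at 12 h was called for *Tmem181b-ps* (edgeR adjusted p = 5.89e-05), and so was the effect at day 3 minus that at 24 h (edgeR adjusted p = 1.03e-06). An unadjusted p under 0.05 was reached by 1015 genes in the first contrast and 1762 in the second. Neither of the 2 fallen genes was called lower at 12 h or at day 3, where 0.0651% and 0.26% of the tested genes were.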

How the data were processed

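RNA of 8 mouse brain libraries (4 MCAO, 4 sham, 24 h) was analysed. The deposited values were raw counts per gene and library. To make them, the authors used TrimmomaticSE for trimming, SortMeRNA to take out reads of mitochondrial DNA and rRNA, STAR 2.5.2b for alignment (GRCm38 plus spike-ins) and htseq-count in union mode with Gencode vM8 for counting. A deposited normalized matrix of the series was not used. Symbols came from a reference table of gene names, with Gencode vM21 for identifiers missing there, and matched 46488 of 46983 identifiers. Coordinates came from Gencode vM21. The 92 spike-ins and the rows without a gene stayed out of library sizes and tests. In the 8 libraries 22.5% to 25.4% of alignments had no feature, 0.370% to 0.404% were ambiguous and 27.5% to 37.3% were not unique.

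Differences were tested with edgeR 4.0.16 (TMM, glmQLFit, glmQLFTest) in R 4.3.3 on genes with more than 10 counts in total, with Benjamini-Hochberg adjustment over all genes tested. Calls needed an adjusted p under 0.01 and a log2 fold change beyond 0.58 in either direction. The biological coefficient of variation was 21.6%. The fit of 48 libraries in 11 groups gave the values set beside 12 h and day 3. Scripts were tested on simulated data. Folds against a group at 0 are lower bounds against 3 counts over the group, and intervals cover counting error only. Python 3.11.15 with pandas 2.3.3 and scipy 1.17.1 made the summaries, and matplotlib 3.10.9 the figures. Alternatives were DESeq2 1.42.0, its size factors, other filters, spike-in scaling, all 48 libraries, a replicate block and each library left out.

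Genes were named by a rule: the 12 largest rises and falls among called genes whose groups did not overlap, with a mean of at least 2 CPM, leaving out clone-based names; up to 4 called members of a list in each direction, or its 2 most abundant members where fewer than 2 were called; *Apoe*, *Trem2*, *Gfap* and *Snap25*; and the 6 largest differences between times in each direction. The members and lists were chosen with earlier results of these data known. Another gene that these rules name is not reported here.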

Additional observations from a re-analysis of the deposited data

Results flagged for a closer look

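Among the genes named, 80 groups of 4 libraries were searched for a single library far from the others, by the gap to the nearest library over the whole range, and 6 were beyond Dixon's 95% critical value, where chance gives about 1 in 20. *Mt2* had 1089 CPM in MCAO library D and at most 628 CPM in the other MCAO libraries. *Il4ra* had 12.9 CPM in sham library C and at most 5.39 CPM in the other sham libraries. *Lgals3* had 3.83 CPM in sham library B and at most 0.599 CPM in the others. *C1qb* had 16.6 CPM in sham library C, its lowest, and at least 34.0 CPM in the others. *Ccl12* had 0.616 CPM in sham library C and *Tmem181b-ps* had 0.429 CPM in MCAO library A, each a single count with the other 3 libraries of the group at 0.

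The MCAO effect differed between times for *Tmem181b-ps*, which has nearly no counts after MCAO at 24 h. On the log2 scale, the effect at 24 h minus that at 12 h was -6.23 (SE 0.885, edgeR adjusted p = 5.89e-05), and the effect at day 3 minus that at 24 h was 7.33 (SE 0.896, edgeR adjusted p = 1.03e-06). With a group near 0 these fitted sizes depend on the prior count and are no bound.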

How the results depend on the processing

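The count of 51 called genes depended on the processing. It was 197 with DESeq2 in place of edgeR, 211 without a filter on low counts, 18 with all 48 libraries in 1 fit, 119 when scaled to the spike-ins (which moved the median of all genes by 0.129 on the log2 scale), 80 with the replicate block and 156 at an adjusted p under 0.05 with any fold. Leaving out 1 library gave 30 to 51, with the lowest values 30, 31 and 32 without sham libraries B, C and D. DESeq2's size factors gave 51 and filterByExpr 45. Part of the difference without a filter comes with 21815 genes tested in place of 15971; the cause of the other differences was not tested. The replicate letters were not stated to pair the samples. Deviations of same-letter libraries correlated at 0.170, -0.114, 0.166 and 0.113 for A to D over 9786 genes. Those of different letters ran from -0.3343 to 0.1415, so whether the letters mark pairs is not settled. The block kept 48 of the 49 higher calls. The effect at 24 h minus that at 12 h had 2 calls in each fit that left out a library. The effect at day 3 minus that at 24 h had 5 calls with DESeq2, 6 without a filter and 2 to 11 with 1 library left out, with 11 without MCAO day 3 library A. The difference in spike-in share ran from -0.415 to -0.111 percentage points with 1 library left out. No named gene with a call changed direction under the alternatives run. When scaled to the spike-ins, the medians of 6 lists without a call turned positive: synaptic (-0.13 to 0.01), GABA (-0.08 to 0.03), homeostatic astrocyte (-0.08 to 0.04), hippocampus (-0.02 to 0.11), choroid plexus (-0.05 to 0.05) and oligodendrocyte precursor genes (-0.01 to 0.09). The alternatives were followed for 40 named genes, which include *Snap25*, *Apoe* and *Trem2* without a call. Of the 40, 24 lost the call with all 48 libraries in 1 fit. With 1 library left out, 83 of 320 values lost the call. The number of libraries limits the precision, and genes of a few counts per library could be called only at large folds.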

Other observations

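Some gene groups not described above held values that a reader may want to follow, chosen after the values were seen. *Cebpd*, a transcription factor of acute inflammation, had 17.1, 37.6, 28.0 and 76.6 CPM after MCAO and 8.98, 3.19, 6.16 and 10.4 CPM in sham (log2 2.41 ± 0.44, edgeR adjusted p = 0.014), just outside the call. *Atf3*, a stress factor of injured neurons and other cells, had 3.86, 3.76, 10.2 and 15.1 CPM against 0.599, 0, 0 and 0.522 CPM (edgeR adjusted p = 0.013). *Neat1*, the noncoding RNA that builds paraspeckles, had 232, 110, 168 and 227 CPM against 97.0, 91.2, 95.5 and 61.6 CPM (log2 1.09 ± 0.22, edgeR adjusted p = 0.029). For these genes all MCAO libraries lay above all sham libraries.

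A few abundant genes of glia and meninges were lower after MCAO without a call by edgeR. *Glul*, the glutamine synthetase of astrocytes, had 1004, 1055, 1185 and 864 CPM against 1605, 1608, 1686 and 1316 CPM (log2 -0.60 ± 0.13, edgeR adjusted p = 0.049). *Gjb6*, an astrocyte gap junction protein, had 47.6, 41.4, 49.2 and 45.9 CPM against 94.6, 63.8, 81.9 and 55.9 CPM (log2 -0.68 ± 0.18). *Igf2*, a growth factor of the meninges and vessels, had 40.3, 36.2, 28.9 and 38.0 CPM against 71.2, 77.8, 46.2 and 65.3 CPM (log2 -0.86 ± 0.19, edgeR adjusted p = 0.044). *Ptgds*, the prostaglandin D synthase of meninges and oligodendrocytes, had 1885, 1511, 1281 and 1580 CPM against 2852, 2267, 1841 and 2780 CPM (log2 -0.64 ± 0.16). DESeq2 called *Glul*, *Igf2* and *Ptgds* lower. When the 48 libraries were scaled together, the control libraries held 1395 to 1748 CPM of *Ptgds*, the sham libraries of 24 h 1823 to 2829 CPM and the MCAO libraries of 24 h 1279 to 1869 CPM, so that MCAO overlapped with control and sham lay above it. *Glul* did not show this order, with 1480 to 1631 CPM in control, 1321 to 1669 CPM in sham and 874 to 1182 CPM after MCAO.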
